A study of Mus musculus with 6 samples.

Results

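The mRNA levels of 10 circadian genes were read in neocortex libraries of HuD KO mice and their controls. These are the repressors of the clock, *Per1*, *Per2*, *Per3*, *Cry1*, *Cry2*, *Nr1d1* and *Nr1d2*, and the PAR bZIP genes *Dbp*, *Tef* and *Hlf*, which carry the output of the clock to other genes. The genes were picked by name as members of this pathway, and all 10 were found among the 13299 genes of the table. HuD KO mice are *Elavl4*-/-, with exon 2 of the gene for HuD exchanged for a PGK-Neo cassette in the germline, so that HuD is lost in all tissues and not in the cortex alone, and controls were wildtype littermates. All animals were adult C57BL/6 males, about 3 to 4 months old, and each of the 6 libraries was made from the neocortex of a single mouse (n = 3 HuD KO, n = 3 control). The study asked what the loss of HuD, a neuronal RNA-binding protein, does to mRNAs in the neocortex.

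In the mammalian clock, the activators CLOCK (or NPAS2) and BMAL1, the product of *Arntl*, bind E-boxes in the promoters of the *Per*, *Cry*, *Nr1d* and PAR bZIP genes. PER and CRY proteins then block these activators, while the nuclear receptors REV-ERBα (*Nr1d1*) and REV-ERBβ (*Nr1d2*) repress *Arntl*. The PAR bZIP proteins DBP, TEF and HLF bind D-boxes in a further set of genes, *Per* genes among them. Most of these mRNAs therefore rise and fall over the day, in the cortex as well as in the suprachiasmatic nucleus, and their level in a sample depends on when the tissue was taken. The sources used here do not give the time of day of tissue collection, so a difference of genotype and a difference of collection time cannot be told apart.

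*Elavl4* was at 1.70, 1.07 and 1.52 FPKM (fragments mapped to a gene, scaled by its length and by the mapped fragments of the library) in HuD KO replicates 1, 2 and 3, against 34.2, 30.4 and 28.3 FPKM in control replicates 1, 2 and 3, so the targeted gene followed the label in every library. The study's methods leave out an HuD KO library as an outlier without its number, and a deposited sheet is named for leaving out replicate 2. HuD KO replicates 1 and 3 were therefore compared with the 3 controls, and the comparison over all 6 libraries stands beside it. In control replicate 3 the 6 hypothalamic neuropeptide genes of a marker list summed to 279.4 FPKM, with *Pmch* at 127 FPKM, against 0.948 to 3.50 in the 3 HuD KO and 1.24 and 2.19 in the other control libraries. Markers of choroid plexus (4 of 6 listed in the table, mostly *Ttr*) summed to 161.4, 6.13 and 88.8 FPKM in HuD KO replicates 1, 2 and 3, against 3.24, 2.92 and 298.2 FPKM in control replicates 1, 2 and 3. The 7 markers of excitatory neurons, the main cell class of the neocortex, were all present and summed to 634.4, 728.4 and 696.3 FPKM in HuD KOs and 560.0, 576.3 and 467.0 FPKM in controls, with every HuD KO library above every control. None of the 6 markers of the suprachiasmatic nucleus is listed in the table. The part of tissue composition in the results that follow was not tested, and in such bulk tissue fewer cells of a type and less RNA per cell cannot be told apart.

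The E-boxes and D-boxes of the loop were looked up in the promoters of the 10 genes. Promoters ran from 250 bases before to 50 bases after the start site, from RefSeq on GRCm38.p6, and 11 promoters of 9 members were matched, while *Per2* had no match. The canonical E-box CACGTG, which reads the same on both strands, stood in 4 member promoters of 3 genes, against 7.15% of the 32851 promoters searched. The promoter windows of *Per3*, *Cry2*, *Nr1d1*, *Nr1d2*, *Dbp* and *Hlf* held no such E-box, and bases outside the windows were not searched. The sequences below run 5′ to 3′ on the strand of the gene, with the E-box in capitals and 10 bases on each side.
Per1, chr11:69098773-69098798, plus strand: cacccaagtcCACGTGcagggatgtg
Cry1, chr10:85185099-85185124, minus strand: tgccggtggtCACGTGgggtgcatgc
Tef, upstream start, chr15:81802536-81802561, plus strand: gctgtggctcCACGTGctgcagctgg
Tef, downstream start, chr15:81811266-81811291, plus strand: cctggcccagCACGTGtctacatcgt
The first base of the E-box lay 166 bases upstream of the start site in *Per1*, 60 bases upstream in *Cry1*, and 127 and 138 bases upstream of the 2 starts of *Tef*. The D-box, searched as TTATGTAA or TTACGTAA on both strands, stood in 1.06% of all promoters and in 1 member promoter, that of *Per3*, which held 2 copies. These are shown with the D-box in capitals.
Per3, proximal, chr4:151044806-151044833, minus strand: ccgcccgcggTTATGTAAcccccgccgt
Per3, distal, chr4:151044853-151044880, minus strand: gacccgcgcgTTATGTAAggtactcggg
The proximal copy began 158 bases and the distal copy 205 bases upstream of the start site. The letters AGGTCA, to which REV-ERB and ROR receptors bind, were found on either strand in the promoters of *Per1* and *Nr1d2* and in 16.3% of all promoters. A match gives the letters only, since binding was not measured in these samples.

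In controls *Tef* had the highest level per length of the 10 mRNAs, with a mean of 35.3 FPKM, followed by *Nr1d1* at 31.7, *Hlf* at 27.3, *Nr1d2* at 24.0, *Cry2* at 18.9, *Dbp* at 15.6, *Per1* at 8.89, *Cry1* at 5.78, *Per2* at 4.81 and *Per3* at 3.91 FPKM. The ranges of the 3 control libraries were separate only between *Nr1d2* and *Cry2*, between *Dbp* and *Per1*, and between *Per1* and *Cry1*. The other neighbours in this order overlapped. The mRNAs of *Tef*, *Hlf* and the REV-ERB genes thus stood at the top of the order and *Per2* and *Per3* at its foot, as the plot of levels by library shows.

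**Figure D1:**
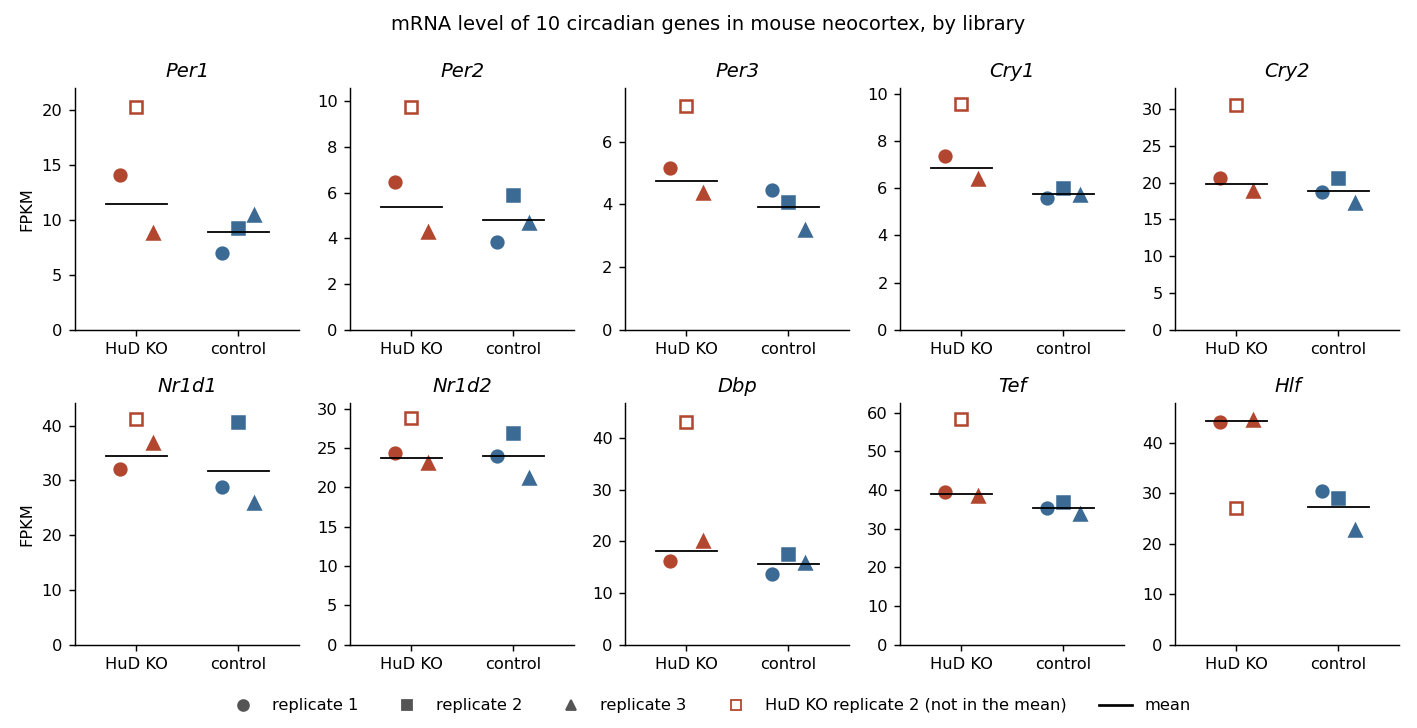
FPKM of each of the 10 genes in every library, with HuD KO left of control in each panel, points for single libraries, an open square for HuD KO replicate 2 and lines for means (HuD KO replicate 2 left out). HuD KO replicate 2 is the highest library in 9 of the 10 panels, and in the *Hlf* panel it lies among the controls while HuD KO replicates 1 and 3 lie above them.

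*Per1*, *Per2* and *Per3* encode the PERIOD proteins, the partners of the cryptochromes in the repressor complex. *Per1* (chr11:69095217-69109960, mm10) was at 14.1, 20.3 and 8.83 FPKM in HuD KO replicates 1, 2 and 3, against 6.94, 9.29 and 10.4 FPKM in control replicates 1, 2 and 3. HuD KO replicates 1 and 2 were above all controls and HuD KO replicate 3 was among them. The log2 fold change of log2(FPKM + 1) was 0.32 over 5 libraries (95% interval -0.27 to 0.90, adjusted p = 0.995 by limma with Benjamini-Hochberg adjustment) and 0.59 over 6 (-0.079 to 1.25, adjusted p = 0.871). Without HuD KO replicate 1, the higher of the HuD KO libraries compared, it was 0.0079. *Per2* (chr1:91415982-91459324) followed the same order within HuD KOs, at 6.47, 9.77 and 4.29 FPKM, against 3.85, 5.90 and 4.67 FPKM in controls. The groups overlapped, with HuD KO replicate 3 below the control mean. Its log2 fold change was 0.13 over 5 libraries (-0.39 to 0.65) and 0.39 over 6 (-0.23 to 1.01), and it was -0.12 without HuD KO replicate 1.

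*Per3* (chr4:151003652-151044665) was at 5.15, 7.14 and 4.37 FPKM in HuD KOs and 4.45, 4.09 and 3.19 FPKM in controls. The groups overlapped by a narrow margin, since HuD KO replicate 3 was below control replicate 1. The log2 fold change was 0.24 over 5 libraries (-0.12 to 0.60, adjusted p = 0.995 by limma) and 0.40 over 6 (-0.028 to 0.84, adjusted p = 0.871). *Per3* is the member that the study names among HuD target mRNAs with altered splicing in HuD KOs. FPKM of a whole gene does not show such a change. *Per3* lies on chromosome 4 with *Elavl4*, 40.65 Mb away. Its span falls within that of *Camta1* on the same strand without shared exon bases.

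*Cry1* and *Cry2* encode the cryptochromes, which hold CLOCK and BMAL1 inactive. *Cry1* (chr10:85131700-85185064) was at 7.37, 9.56 and 6.38 FPKM in HuD KOs, against 5.58, 6.03 and 5.72 FPKM in controls. Every HuD KO library was above every control, with or without HuD KO replicate 2. Its log2 fold change was 0.21 over 5 libraries (95% interval -0.024 to 0.45) and 0.36 over 6 (0.0085 to 0.71), with an unadjusted p of 0.046 over 6 and an adjusted p of 0.871 by limma. By an exact permutation test (two-sided) p was 0.2 over 5 libraries and 0.1 over 6, the smallest that these designs allow. *Cry2* (chr2:92403646-92434043) was at 20.6, 30.6 and 18.9 FPKM in HuD KOs and 18.8, 20.7 and 17.2 FPKM in controls. HuD KO replicate 2 stood alone and the other HuD KO libraries were within the range of controls. For *Cry2* the log2 fold change was 0.065 over 5 libraries (-0.19 to 0.32) and 0.27 over 6.

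*Nr1d1* and *Nr1d2* encode the REV-ERB receptors, which compete with the ROR activators for the same elements in *Arntl*. *Nr1d1* (chr11:98767932-98775333) was at 32.1, 41.2 and 36.8 FPKM in HuD KOs, against 28.7, 40.6 and 25.9 FPKM in controls. Control replicate 2 was almost level with HuD KO replicate 2, and the log2 fold change was 0.14 over 5 libraries (-0.35 to 0.63) and 0.22 over 6. *Nr1d1* shares 263 of its 3077 exon bases with *Thra* on the opposite strand, and *Thra* was at 120.2, 164.4 and 123.0 FPKM in HuD KOs and 105.9, 108.6 and 127.5 FPKM in controls. The sources used here do not say whether FPKM was counted by strand, so reads of the 2 genes in these bases may be mixed. *Nr1d2* (chr14:18204054-18239127) was at 24.3, 28.8 and 23.0 FPKM in HuD KOs and 24.0, 26.9 and 21.2 FPKM in controls. It had the narrowest spread of the 10 genes and overlapping groups, and its log2 fold change was -0.015 over 5 libraries (-0.30 to 0.27) and 0.077 over 6.

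*Dbp*, *Tef* and *Hlf* encode the D-box activators. *Dbp* (chr7:45705088-45710203) was at 16.2, 43.1 and 20.0 FPKM in HuD KOs, against 13.6, 17.5 and 15.8 FPKM in controls. HuD KO replicate 2 held 2.75 times the control mean, the most of any member, while HuD KO replicate 1 was within the range of controls. The log2 fold change was 0.20 over 5 libraries (95% interval -0.15 to 0.54, adjusted p = 0.995 by limma) and 0.60 over 6 (-0.17 to 1.38, adjusted p = 0.871). *Dbp* shares 539 exon bases with *Sphk2* on the opposite strand, which was at 5.11, 6.08 and 4.83 FPKM in HuD KOs and 4.73, 5.73 and 6.03 FPKM in controls.

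*Tef* (chr15:81802421-81826861) was at 39.6, 58.3 and 38.5 FPKM in HuD KOs and 35.4, 36.8 and 33.7 FPKM in controls. As for *Cry1*, every HuD KO library was above every control, also without HuD KO replicate 2. *Tef* had a log2 fold change of 0.14 over 5 libraries (-0.042 to 0.33) and 0.33 over 6, and its exact permutation p was again the smallest possible, 0.2 and 0.1.

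*Hlf* (chr11:90336536-90390895) differed from the other 9 members in its order of libraries. It was at 44.1, 27.0 and 44.4 FPKM in HuD KOs, against 30.3, 29.0 and 22.7 FPKM in controls. HuD KO replicates 1 and 3 were above all controls and HuD KO replicate 2 was within their range. The mean was 44.3 ± 0.245 FPKM (SD, n = 2) in HuD KO replicates 1 and 3 and 27.3 ± 4.10 FPKM (SD, n = 3) in controls, a ratio of 1.62. The log2 fold change over 5 libraries was 0.69 (SE 0.14, 95% interval 0.35 to 1.02), with an unadjusted p of 0.0028 and an adjusted p of 0.995 by limma, the 35th smallest p of 13121 genes. *Hlf* thus did not pass the threshold, and over all 6 libraries the log2 fold change was 0.46 (-0.052 to 0.96, adjusted p = 0.871). Without control replicate 3, the library with hypothalamic mRNAs, it was 0.56 with an adjusted p of 0.137 by limma, the lowest of its 19 alternatives, followed by 0.741. Among the excitatory neuron markers, *Neurod6* had a like order of libraries, at 58.7, 29.7 and 60.6 FPKM in HuD KOs and 33.9, 44.1 and 23.8 FPKM in controls. *Nrn1* was at 106, 59.4 and 119 FPKM in HuD KOs and 63.3, 44.1 and 74.9 FPKM in controls. It shared the high HuD KO replicates 1 and 3, but control replicate 3 was its highest control and the lowest library for *Hlf*. Both were chosen after their values were seen, and the part of excitatory neuron content in the *Hlf* levels was not tested.

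**Figure D2:**
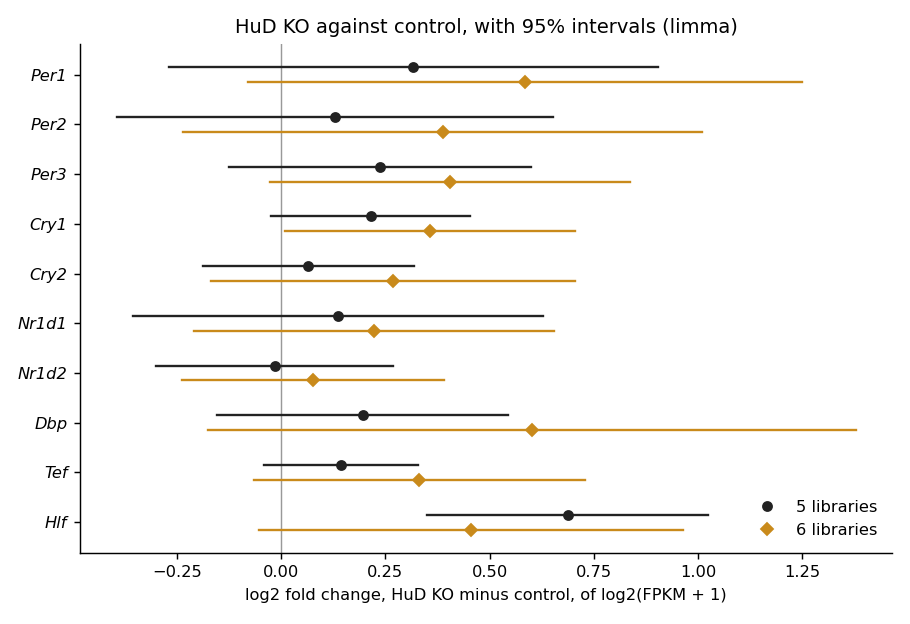
Log2 fold change of each gene (HuD KO minus control, log2(FPKM + 1)) with 95% intervals from limma, over 5 libraries (without HuD KO replicate 2) and over all 6. Over 5 libraries the interval lies above 0 for *Hlf* alone, and over 6 for *Cry1* alone, with the other 9 intervals in each comparison holding 0.

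None of the 10 members passed an adjusted p of 0.05 by limma in either comparison. Over all genes, 6 passed over 5 libraries (0.0457% of 13121 tested) and 4 over 6 (0.0305% of 13114 tested). At an unadjusted p under 0.05, 1 member passed over 5 libraries (*Hlf*) and 1 over 6 (*Cry1*), beside 3.43% and 3.48% of all genes, or 1.62% and 1.63% counting only genes that were higher in HuD KOs. Over 5 libraries 9 of 10 members had a log2 fold change above 0 and their median was 0.17, beside 44.5% of all genes and a median of -0.017. Over 6 libraries all 10 were above 0 with a median of 0.37, beside 47.6% of all genes and a median of -0.010. Without control replicate 3, 9 of 10 members were above 0 in either comparison, with a median of 0.12 over HuD KO replicates 1 and 3 and 0.32 over all HuD KO libraries. Every HuD KO library was above every control for 3 of 10 members over 5 libraries (*Cry1*, *Tef* and *Hlf*), beside 8.2% of all genes, and for 2 of 10 over 6 (*Cry1* and *Tef*), beside 4.43%. No member had every HuD KO library below every control, beside 11.0% of all genes over 5 libraries and 5.7% over 6. The members share libraries and regulators, so these counts are not 10 separate observations. The 95% interval over 5 libraries lay within 0.5 of 0 on the log2 scale for 4 of 10 members (*Cry1*, *Cry2*, *Nr1d2* and *Tef*), while the interval of *Hlf* lay above 0, and those of the other 5 held both 0 and 0.5.

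For all 10 members the highest of the 6 libraries was an HuD KO and the lowest a control. Over all genes, HuD KO replicates 1, 2 and 3 were the highest library for 9.55%, 33.0% and 8.63%. Control replicates 1, 2 and 3 were the lowest for 14.9%, 10.1% and 19.0%. The ratio of the highest to the lowest library was 3.16 for *Dbp*, 2.92 for *Per1*, 2.54 for *Per2* and 2.24 for *Per3*, and 1.36 to 1.96 for the other 6. Within a genotype, this ratio was 2.66 among HuD KOs and 1.28 among controls for *Dbp*, 2.28 among HuD KOs and 1.53 among controls for *Per2*, and 1.28 among HuD KOs and 1.57 among controls for *Nr1d1*. Of all genes, 2.97% had a wider range than *Dbp* on the log2 scale and 4.08% a wider range than *Per1*, against 58.1% for *Nr1d2*. HuD KO replicate 2 was the highest library for 9 of 10 members, beside 33.0% of all genes, and HuD KO replicate 3 for *Hlf*. Control replicate 1 was the lowest for *Per1*, *Per2*, *Cry1* and *Dbp*, and control replicate 3 for the other 6.

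The deviation of a library from the mean of the 5 others on the log2(FPKM + 1) scale was taken for each gene. The median over the 10 members was 0.074, 0.65 and -0.070 in HuD KO replicates 1, 2 and 3 and -0.23, -0.14 and -0.29 in control replicates 1, 2 and 3, while the median over all genes was between -0.019 and 0.038 in every library. In HuD KO replicate 2 the deviation was 1.33 for *Dbp*, 0.99 for *Per1* and 0.85 for *Per2*, between 0.56 and 0.65 for *Cry1*, *Per3*, *Cry2* and *Tef*, 0.34 for *Nr1d1* and 0.27 for *Nr1d2*. *Hlf* alone was below 0, at -0.28. In all, 7 of 10 members lay above 0.5 in that library, beside 10.65% of all genes.

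**Figure D3:**
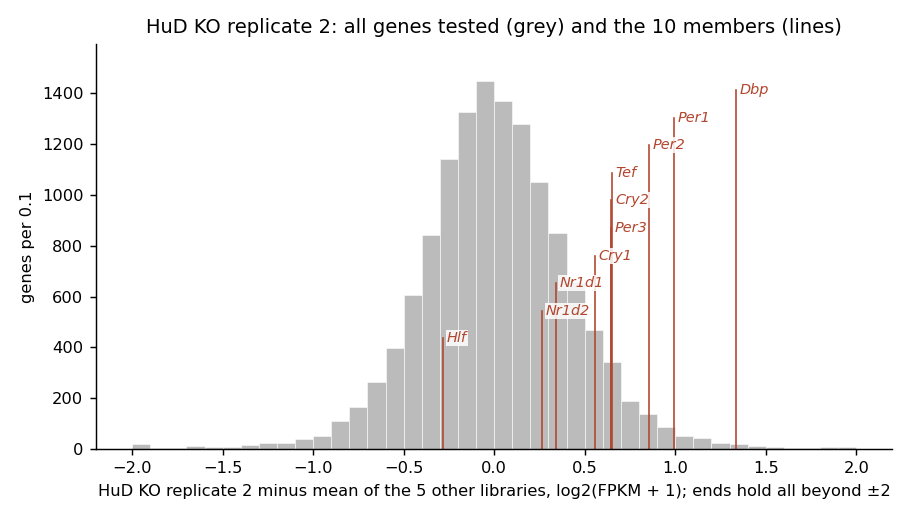
Histogram of the deviation of HuD KO replicate 2 from the mean of the 5 other libraries (log2(FPKM + 1), genes per bin of 0.1) over all genes tested, with a line for each of the 10 members. *Dbp* at 1.33 and *Per1* at 0.99 are in the right tail, 7 of 10 members are above 0.5, and *Hlf* at -0.28 is the member left of 0.

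In HuD KO replicate 2, 3 of the 4 activator genes of the loop stood on the other side. Over the 5 libraries without it they did not. There 3 of 4 had a log2 fold change above 0 (median 0.14), beside 9 of 10 members (median 0.17), and none was called. *Arntl*, which encodes BMAL1, was at 6.70, 3.39 and 6.48 FPKM in HuD KOs and 6.49, 6.60 and 4.64 FPKM in controls. *Npas2*, the partner of BMAL1 in the forebrain, was at 11.1, 6.68 and 11.8 FPKM in HuD KOs and 9.64, 10.4 and 7.79 FPKM in controls. *Clock* was at 8.87, 5.84 and 6.05 FPKM in HuD KOs and 6.33, 6.92 and 6.66 FPKM in controls. All 3 were lowest in HuD KO replicate 2, beside 31.0% of all genes, while the fourth activator gene, *Arntl2*, was between 0.98 and 1.76 FPKM and lowest in HuD KO replicate 1. The ratio of *Dbp* to *Arntl* FPKM was 2.41, 12.7 and 3.08 in HuD KOs, against 2.10, 2.65 and 3.40 in controls, and that of *Per1* to *Arntl* was 2.10, 5.98 and 1.36 in HuD KOs, against 1.07, 1.41 and 2.25 in controls. HuD KO replicate 2 had the highest value of both ratios, and for both the other HuD KO libraries were within the range of controls.

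**Figure D4:**
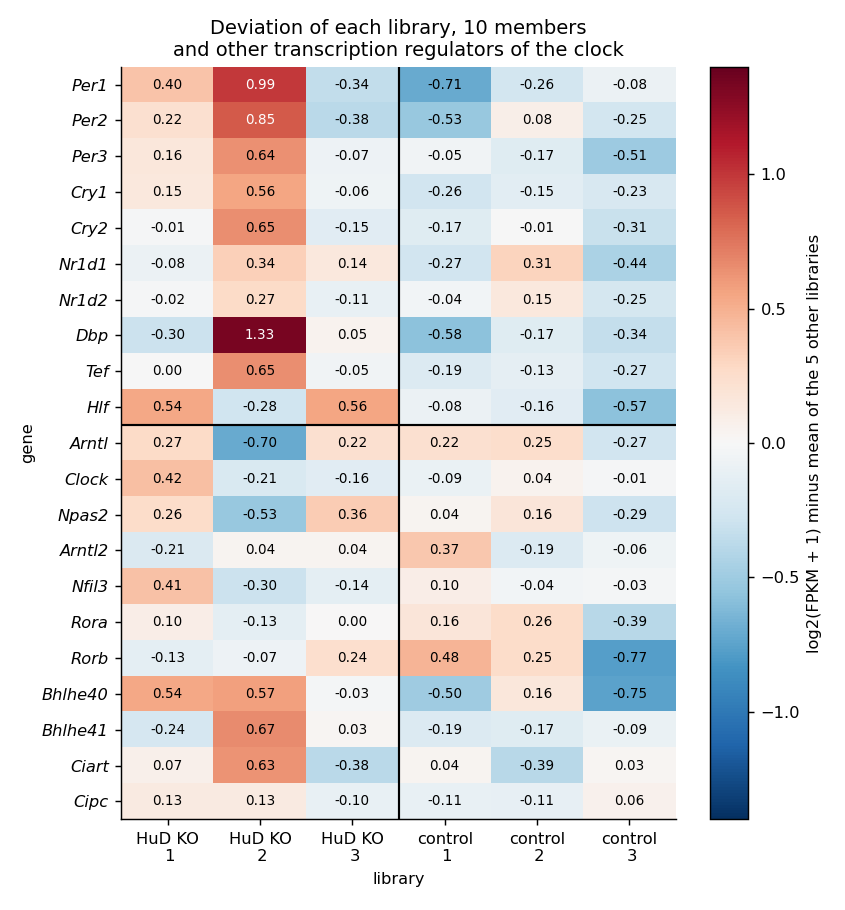
Deviation of each library (columns, HuD KO left of control) from the mean of the 5 others on the log2(FPKM + 1) scale, for the 10 members above the line and 11 other transcription regulators of the clock below it. The column of HuD KO replicate 2 is above 0 for 9 members and below 0 for *Hlf*, and it is at -0.70 for *Arntl*, -0.53 for *Npas2* and -0.21 for *Clock*.

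Further genes of the loop were read from lists of its other parts, and 19 of them were measured. None passed an adjusted p of 0.05 by limma over 5 or 6 libraries. The log2 fold change was above 0 for 12 and below 0 for 7 in both comparisons, with a median of 0.040 over 5 libraries and 0.033 over 6. *Bhlhe40*, a repressor that binds E-boxes, had the largest log2 fold change of these, 0.52 over 5 libraries and 0.60 over 6 (unadjusted p = 0.031 over 6, by limma). It was at 38.1, 38.7 and 27.1 FPKM in HuD KOs and 20.4, 30.3 and 17.6 FPKM in controls, with overlapping groups. Its relative *Bhlhe41* was at 4.53, 8.33 and 5.46 FPKM in HuD KOs and 4.69, 4.75 and 5.01 FPKM in controls, and *Ciart*, a further repressor, was at 3.88, 5.75 and 2.77 FPKM in HuD KOs and 3.79, 2.75 and 3.76 FPKM in controls. Both were highest in HuD KO replicate 2, as 8 of the 19 were in all, beside 33.0% of all genes. Of the 19, 6 were lowest there, beside 31.0% of all genes. *Nfil3*, which represses through D-boxes, was lowest there, at 7.07, 4.35 and 4.87 FPKM in HuD KOs and 5.73, 5.23 and 5.26 FPKM in controls.

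Of the ROR receptors, which activate *Arntl*, *Rora* had a log2 fold change of 0.033 and *Rorb* of 0.055 over 5 libraries. *Csnk1d*, the kinase that marks PER proteins for degradation, was at 26.4, 31.0 and 26.1 FPKM in HuD KOs and 24.8, 26.0 and 25.1 FPKM in controls, with every HuD KO library above every control but a log2 fold change of 0.052 over 5 libraries. *Csnk1e*, *Btrc*, *Fbxw11*, *Cipc*, *Fbxl21*, *Usp2* and *Noct*, which act on clock proteins or mRNAs, had log2 fold changes from -0.20 (*Fbxl21*) to 0.058 (*Cipc*) over 5 libraries. Both *Csnk1d* and *Cry1* therefore had separate groups, with no call for either. Over 5 libraries the groups of *Npas2* were separate too, with a log2 fold change of 0.28 and no call. Over all genes, every HuD KO library was above every control for 8.2% over 5 libraries and 4.43% over 6.

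*Per1* and *Per2* also respond to neuronal activity and, with *Dbp*, to other daily signals, so lists of such genes were read in the same libraries. The 11 immediate early genes summed to 582.6, 498.0 and 207.6 FPKM in HuD KO replicates 1, 2 and 3, against 275.2, 297.6 and 207.5 FPKM in controls. In this sum, as with *Per1* and *Per2*, HuD KO replicates 1 and 2 were the high libraries and HuD KO replicate 3 was not. Single genes varied, and 4 of the 11 were highest in HuD KO replicate 2, beside 33.0% of all genes. The 4 with the smallest p were *Junb*, *Arc*, *Ier2* and *Nr4a1*, and *Junb* was at 74.5, 80.1 and 33.0 FPKM in HuD KOs and 33.8, 34.3 and 29.9 FPKM in controls. Of the 11, 10 had a log2 fold change above 0 over 5 libraries (median 0.27) and none passed an adjusted p of 0.05 by limma. The part of neuronal activity in the *Per* levels was not tested.

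Of 11 glucocorticoid-responsive genes tested over 5 libraries, 5 had a log2 fold change above 0 and 6 below, none was called, and the median was -0.097. The smallest p belonged to *Mt1*, *Mt2*, *Arrdc2* and *Nfkbia*, all with a log2 fold change below 0, from -0.38 (*Mt2*) to -0.17 (*Nfkbia*). Of the 12 on the list, 8 were highest in HuD KO replicate 2, beside 33.0% of all genes. The other 4 (*Mt1*, *Mt2*, *Pdk4* and *Errfi1*) were lowest there, beside 31.0% of all genes. *Tsc22d3*, chosen after its values were seen, was at 11.3, 27.3 and 13.4 FPKM in HuD KOs and 12.9, 14.5 and 12.4 FPKM in controls. The cold-inducible mRNAs *Cirbp* and *Rbm3*, which follow body temperature over the day, were highest there too. *Cirbp* was at 16.6, 38.4 and 20.1 FPKM in HuD KOs, against 19.7, 19.9 and 16.2 FPKM in controls, and *Rbm3* was at 17.3, 23.9 and 19.6 FPKM in HuD KOs, against 15.0, 17.0 and 11.5 FPKM in controls. Every HuD KO library was above every control for *Rbm3* (log2 fold change 0.34 over 5 libraries, unadjusted p = 0.091 by limma), and the groups overlapped for *Cirbp*. The part of these signals in the levels of the members was not tested.

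The shared pattern of the members was summarised as the mean of their standardised log2(FPKM + 1) values over the 6 libraries. The members themselves, which make up this mean, correlated with it from r = 0.97 (*Cry2* and *Tef*) down to 0.77 (*Nr1d1*) and 0.12 (*Hlf*), while *Arntl* had r = -0.55. Among 7227 other genes whose mean was 5 FPKM or more, the 5 most alike were *Kdm4b* (r = 0.999), *Arhgap23* (0.996), *Add2* (0.994), *Osbpl10* (0.993) and *Uck2* (0.991). *Kdm4b* was at 10.7, 13.1 and 10.2 FPKM in HuD KOs and 9.33, 10.1 and 8.90 FPKM in controls. With only 6 libraries, of which HuD KO replicate 2 stands apart, and so many candidate genes, such values of r are a description of these libraries.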

How the data were processed

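FPKM values of 3 HuD KO and 3 control neocortex libraries were used as deposited. The authors checked reads with FastQC 0.11.5, trimmed them with cutadapt and Trimmomatic and aligned them to mm10 with STAR 2.7.3a, per the labels, and the sources used here do not name the program that gave FPKM. The table holds 13299 genes and 1 line of sums, which was left out, as were the authors' own fold changes and p-values. It gives no counts, so depth is unknown, and FPKM totals (216700 to 227400) are no measure of it. Where the mean was 0.5 FPKM or more, genes were tested on log2(FPKM + 1), which understates changes of low genes, with limma 3.58.1 in R 4.3.3 (eBayes with trend, Benjamini-Hochberg over all genes, threshold 0.05), also tested on simulated data. Exact permutation tests used SciPy 1.17.1, with Python 3.11.15, NumPy 2.4.6 and pandas 2.3.3, and figures matplotlib 3.10.9. Members, gene lists and tests were chosen with earlier results of these data known. Named were all members, *Elavl4*, the genes of the loop lists (some are not reported here), up to 4 of each other list by smallest p and the 5 genes most like the members. *Tsc22d3*, *Pdk4*, *Errfi1* and the cell type markers were chosen with their values in view. The coordinates in the table equalled those of GENCODE M21 for 9 of 10 members. Alternatives were all 6 libraries, a pseudocount of 0.1, other filters, scalings and variance settings, the replicate number as a block, and leaving out each library. The protein sequences of the members were not analysed here.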

Additional observations from a re-analysis of the deposited data

How the results depend on the processing

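No member and no further gene of the loop passed an adjusted p of 0.05 in any of the 19 alternatives. The count of all genes called, 6 over 5 libraries, was 2 with a pseudocount of 0.1 and 3 with the replicate number as a block, over 5 or 6 libraries, and it ranged from 2 to 11 when single libraries were left out (2 without control replicate 1 or HuD KO replicate 1, and 11 without control replicate 3). Over all 6 libraries, leaving out single libraries gave 2 to 7. *Per2*, at 0.13, ranged from -0.12 (without HuD KO replicate 1) to 0.38 when single libraries were left out. *Nr1d2*, at -0.015, turned to 0.077 over all 6 libraries, 0.0062 with median scaling, 0.066 with the replicate block over 5 libraries and 0.077 with the replicate block over 6. When single libraries were left out it ranged from -0.099 to 0.066 over 5 libraries, and over 6 it was 0.079 and 0.16 on leaving out control replicates 1 and 2, and 0.10 and 0.14 on leaving out HuD KO replicates 1 and 3. The cause was not tested. The other 8 members were above 0 in all 19 alternatives, with ranges of 0.0079 to 0.87 for *Per1*, 0.051 to 0.88 for *Dbp* and 0.33 to 0.77 for *Hlf*. The lowest adjusted p of any member was 0.137, for *Hlf*. The main comparison did not pair libraries by replicate number. The correlations of deviations between libraries of a shared number were -0.12, 0.18 and 0.04. With 3 libraries per genotype, such values cannot show whether a pairing exists. With unknown depth, no counting error can be given.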
